A study of Mus musculus with 9 samples.

Results

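The WT baseline is the transcriptome of cells sorted as resident macrophages of the mouse colon, taken from the 3 wild-type (WT) libraries of a series of 9. The cells were lamina propria macrophages that had been sorted as low for Ly6C and positive for MHC class II from 6-week-old mice, and their RNA was read by paired-end sequencing. The other 6 libraries of the series came from p47phox-/- and gp91phox-/- mice, which lack a subunit of the phagocyte NADPH oxidase, and are not compared here. A gene was counted as expressed when its normalized count was at least 10 in each of the 3 WT libraries, a rule met by 12516 of 42454 genes in the table (29.5%). The expressed genes were then ranked by their mean. With 1 group there is nothing to test, so levels and spreads are described. Values after ± are SDs over n = 3 libraries. The labels number the WT libraries 1 to 3 without saying whether each came from a separate mouse, so the spread between them may be partly technical. MHC class II and Ly6C were the gate of the sort, so high class II and low Ly6C are a property of how the cells were chosen.

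Macrophages of the gut lamina propria lie beneath the epithelium, where they engulf bacteria and dying cells and digest them in lysosomes. They arise largely from blood monocytes, which lose Ly6C and gain MHC class II as they mature in the tissue, while a smaller long-lived population carries receptors such as Tim-4. Mature gut macrophages are known for presenting antigen, for making IL-10 and for answering microbial products with little inflammation.

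The 3 libraries held 36655733, 38036453 and 32864793 recovered reads on genes, and 15825 to 17280 genes had at least 1 read in a given library. Across the expressed genes the log2 values of any pair of libraries correlated at a Pearson coefficient of 0.973 to 0.978, which is a description across genes. All 1139 table genes placed on chromosome X were listed at 0 in all 9 libraries. The X-linked macrophage genes Cybb, Cfp, Vsig4, Lamp2, Tlr7, Tlr8, Tlr13 and Timp1 could therefore not be read. A count of 3 reads, taken as the limit that a count of 0 allows, correspond to a normalized count of 2.20 to 2.74, which covers counting error only.

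The sorted cells carried the transcripts that define mature macrophages. Csf1r, the receptor for the growth factor that keeps macrophages alive, had normalized counts of 107239, 82181 and 102188 in replicates 1, 2 and 3. Adgre1, which encodes F4/80, stood at 51336, 31772 and 47868. All 25 genes on a list of macrophage identity were expressed, at a median rank of 239 among the 12516, and together they held 2.57% ± 0.167 of the summed normalized counts. Adgre1, Zeb2 and Axl, 3 of the 25, had a wide spread. Wide means a coefficient of variation (CV) at least 2 times the median CV of the expressed genes nearest in mean. Over all expressed genes, 1134 or 9.06% were of wide spread, which is close to, and not above, the share among the 25. Replicate 2 was the lowest library in 18 of the 25 identity genes, against 34.1% of all expressed genes. Scaled by total reads (CPM) in place of the deposited size factors, it was lowest in 12, against 24.6%. Replicate 3 was the highest in 12, against 31.4% of all expressed genes, and the lowest in 5, against 31.8%.

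Of 5 genes proposed as marks of these cells, Apoe and Cd74 were the 2 highest by mean normalized count. C1qa, a chain of complement C1q, ranked at 24 with 105685, 66803 and 87861. Cx3cr1, the fractalkine receptor that gut macrophages gain as they mature, ranked at 1203 with 4995, 4060 and 5542. Il10 ranked at 1365 with 4972, 4028 and 4232, or 4411 ± 497. Replicate 2 was the lowest of the 3 libraries for all 5, against 34.1% of all expressed genes. On the CPM scale it was lowest for 4, against 24.6%. In bulk RNA, fewer cells of a type and less RNA per cell cannot be told apart, and this holds for every marker below.

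A small number of genes took much of the sequencing. The highest gene held 2.53% ± 0.563 of the summed normalized counts, the 10 highest 10.7% ± 1.24, the 100 highest 27.1% ± 1.97 and the 1000 highest 61.0% ± 1.57. The first 549 genes held 50% of the total. The median expressed gene had a mean of 597, while 17 genes had a mean of at least 100000 and 499 of at least 10000. Apoe, the apolipoprotein that carries cholesterol out of macrophages, led with 930217, 541964 and 776165 (749449 ± 195500). Cd74, the invariant chain that escorts MHC class II molecules, followed with 772112, 570871 and 705042 (682675 ± 102468). The libraries ranked alike for both genes, with replicate 1 highest and replicate 2 lowest.

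Counts grow with transcript length, so genes were compared with each other per kilobase. Per kilobase of summed exon, Cd74 stood at 406596 and Apoe at 350537 normalized counts. Per kilobase of the longest transcript the order was reversed, with 532279 for Apoe and 484167 for Cd74, so the data do not settle which of them was higher. Ftl1 (132761 per kilobase of exon), Lyz2 (125837), Psap (124247) and H2-Eb1 (124109) came next on the exon scale. They encode the ferritin light chain, lysozyme M, the precursor of the saposins that help lipid breakdown, and a class II beta chain. Of the 30 highest named genes by count, 24 were also among the 30 highest per kilobase of exon. The 6 that entered on that scale were Cd14, Rplp1, Ctsz, Jund, Ptma and Junb. Reads of Ftl1, the class I genes, Lyz1 and Lyz2 can fall on near-identical copies elsewhere, so their levels are uncertain.

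**Figure D1:**
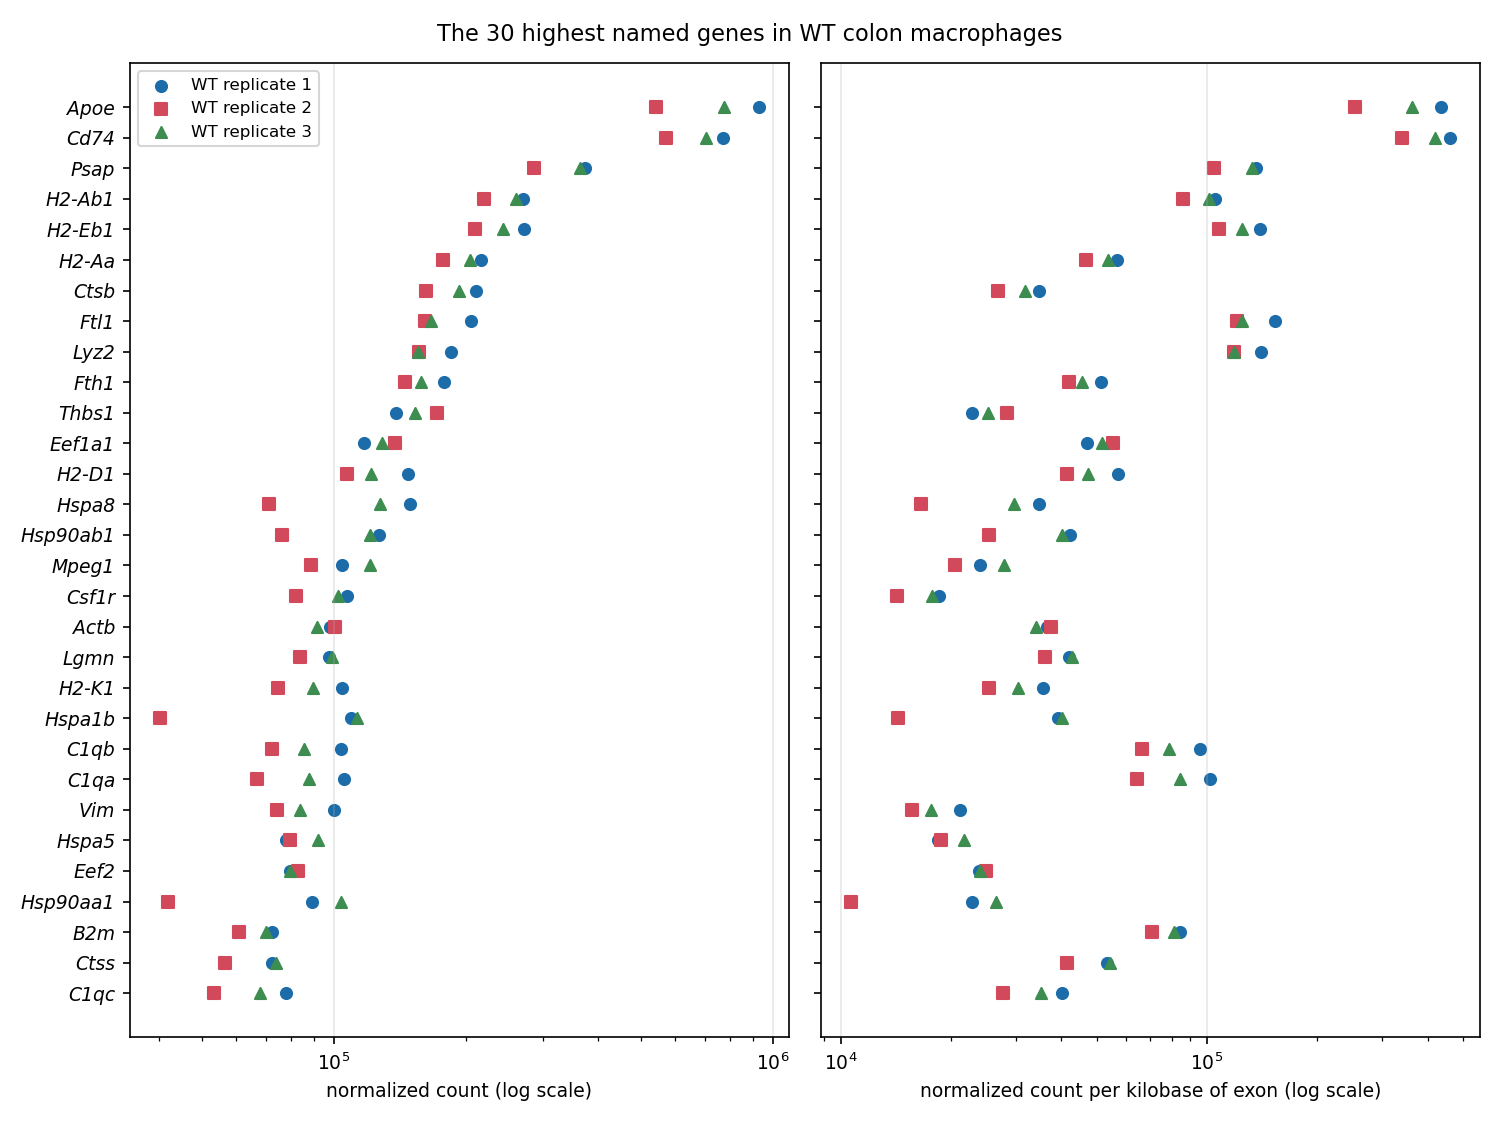
Normalized counts (left, log scale) and normalized counts per kilobase of exon (right, log scale) of the 30 highest named genes by mean count, with 1 point per WT library. Replicate 2 lies left of the other libraries for Apoe (541964), Hspa1b (40107) and Hsp90aa1 (41809), while the 3 points nearly coincide for Eef2 (80626 ± 1933).

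MHC class II held the largest share among the functional gene lists. The 15 genes of the MHC class II list, all expressed, held 5.47%, 4.61% and 5.13% of the summed normalized counts in replicates 1, 2 and 3. Most of this came from Cd74 and the classical chains. H2-Ab1 had 270305, 220076 and 260202 normalized counts, H2-Eb1 271910, 209360 and 242534, and H2-Aa 216227, 177408 and 204152. The ratio of H2-Ab1 to H2-Aa counts differed little between the libraries, at 1.25, 1.24 and 1.28, and that of Cd74 to H2-Ab1 was 2.86, 2.59 and 2.71. H2-Eb1 counts lay above those of H2-Ab1 in replicate 1 and below them in replicates 2 and 3. Class II genes are switched on together through paired X and Y boxes upstream of their start, bound by the RFX complex and NF-Y under the coactivator CIITA. The 200 bases before the start of H2-Aa and H2-Eb1 are shown because both genes rank among the 6 highest and share these elements, with capitals marking the X box core GCAACT and the Y box CTGATTGG. They come from RefSeq on GRCm38.p6 and are written 5′ to 3′ on the gene's strand, at chr17:34287824-34288023 (minus strand) for H2-Aa and chr17:34305667-34305866 (plus strand) for H2-Eb1.
H2-Aa: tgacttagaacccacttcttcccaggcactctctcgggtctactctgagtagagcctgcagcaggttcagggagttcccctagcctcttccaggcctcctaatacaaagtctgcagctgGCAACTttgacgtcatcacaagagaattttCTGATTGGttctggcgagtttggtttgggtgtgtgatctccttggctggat
H2-Eb1: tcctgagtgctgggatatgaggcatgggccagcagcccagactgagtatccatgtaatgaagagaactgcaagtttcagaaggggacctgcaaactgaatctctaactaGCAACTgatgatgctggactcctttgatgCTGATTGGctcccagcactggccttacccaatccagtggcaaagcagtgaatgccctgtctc

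In H2-Aa the X box core began 81 bases and the Y box 51 bases before the start, and in H2-Eb1 91 and 62 bases before it. Searched on both strands of 32851 promoter windows of the same length, GCAACT occurred in 7.28%, CTGATTGG in 3.54% and both in 0.244%. These matches are a description of the letters and show no binding. Ciita itself was expressed at 4433, 3195 and 4536 normalized counts.

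The other members of the class II pathway divided by library. The peptide loaders H2-DMa (17539, 13304 and 14738) and H2-DMb1 (15667, 12321 and 15063) were lowest in replicate 2, as were Cd74 and the classical chains. The 4 class II genes of wide spread went the other way. H2-Ob stood at 2207, 3849 and 2529, H2-Oa at 539, 880 and 537, H2-DMb2 at 2226, 4122 and 2421, and H2-Eb2 at 605, 1268 and 853. H2-Oa and H2-Ob encode the H2-O dimer that restrains H2-DM and is best known from B cells. The B cell markers given further down were also highest in replicate 2, and their part in these 4 genes was not tested. Without replicate 2, 1 of the 15 genes of this list was of wide spread, against 17.3% of all expressed genes in that setting. The costimulators Cd86 (9184 ± 582) and Cd80 (3005 ± 150) varied little.

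All 19 genes of the MHC class I list were expressed, none with a wide spread, against 9.06% of all expressed genes. They held 1.60%, 1.37% and 1.45% of the total. Replicate 1 was the highest library in 13 of them and replicate 2 the lowest in 13, against 32.2% and 34.1% of all expressed genes. On the CPM scale replicate 2 was lowest in 9, against 24.6%. H2-D1 stood at 147772, 107174 and 121671, and B2m, the shared light chain, at 72324, 60964 and 69934. Per kilobase of exon B2m reached 78768 normalized counts, against 48677 for H2-D1 and 30504 for H2-K1. The chaperone Calr (44562 ± 2235) and the peptide transporter gene Tap1 (4145 ± 391) completed the loading pathway.

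Complement, lysosomal and lipid genes were also among the top ranks. Of 19 complement genes 17 were expressed, and the other 2, Cfp and Vsig4, lie on chromosome X. C1qb stood at 103847, 72244 and 85618 and C1qc at 77674, 53455 and 67897. Per kilobase of exon C1qa (83445) and C1qb (80181) were close, and C1qc lay lower at 34356, or at 55147 per kilobase of the longest transcript. Replicate 2 was the lowest library in 15 of 17 complement genes, against 34.1% of all expressed genes. Cfb, of the alternative pathway, was an exception, at 5698, 8411 and 5375. C3, the central component, stood at 15752, 11821 and 12559, and the anaphylatoxin receptors C5ar1 and C3ar1 at 20199 ± 2906 and 16675 ± 3445. The classical pathway proteases C1ra (708 ± 50.4) and C1s1 (217 ± 45.2) were low beside the C1q chains they bind, with 238 and 69.4 normalized counts per kilobase of exon.

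Of 30 lysosomal genes 28 were expressed, with Lamp2 and Atp6ap1 unreadable on chromosome X, and the list held 4.02% ± 0.319 of the total. Psap stood at 372860, 285822 and 364120 and the cysteine protease gene Ctsb at 210845, 162111 and 192454. Replicate 2 was lowest in 23 of the 28, against 34.1%. The proteases followed per kilobase of exon in the order Ctss (49744), Lgmn (40272), Ctsz (31252), Ctsb (31147) and Ctsd (21664), in which Ctsz and Ctsb did not differ beyond their spread. Ctsl was the only member of wide spread, at 28662, 16110 and 26059. The bone-type protease Ctsk was low, with 73.7, 75.6 and 107. Atp6v0d1, a subunit of the proton pump that acidifies lysosomes, hardly varied, at 6938, 6946 and 6962.

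Among 19 genes of lipid handling, 18 were expressed and 6 had a wide spread, against 9.06% of all expressed genes. Without replicate 2, 3 of the 18 had a wide spread, against 17.3%, which is nearly the same share. Apoe supplied 749449 of their mean summed count of 927285. Abca1, the cholesterol exporter, stood at 20294, 14662 and 26778. Plin2, which coats lipid droplets, varied less, at 32522 ± 2272. Lpl, lipoprotein lipase, was 1271, 4470 and 2344, Fabp5 was 2126, 3650 and 1942, and the scavenger receptor gene Cd36 was 7926, 11743 and 7967. Replicate 2 was the highest library for all 3 of these and the lowest for Apoe and Abca1. Trem2, a lipid-sensing receptor, was moderate at 1807 ± 125, and Apoc2 did not reach 10 in every library (19.1, 5.14 and 4.57).

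Iron storage was prominent, with Ftl1 at 205538, 161579 and 166580 and Fth1, the ferritin heavy chain, at 178124, 145310 and 158422. Hmox1, which breaks down heme, had a wide spread at 42220, 19699 and 40455. The iron exporter gene Slc40a1 (879 ± 97.9) and the transferrin receptor gene Tfrc (1115 ± 241) were modest.

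All 33 macrophage transcription factors on the list were expressed, although their levels spanned a wide range. Per kilobase of exon Cebpb (15724) was highest of those named here, followed by Spi1 (6786), which encodes PU.1, and Klf4 (3186). Runx3 (11454 ± 533), Irf5 (9930 ± 202) and Irf8 (11092 ± 1120) were steady across libraries. Spic, a factor of red pulp macrophages, was of wide spread at 1628, 1017 and 1033. Gata6, the factor of peritoneal macrophages, passed the minimum narrowly with 26.5, 16.9 and 17.4, and Pparg, of alveolar macrophages, stood at 263 ± 45.5.

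Receptors known from long-lived gut macrophages were all expressed, at levels that ranged widely. Cd163, the haemoglobin scavenger receptor, stood at 10980, 10011 and 11865 and the mannose receptor gene Mrc1 at 43464, 33839 and 48937. Lyve1 was 3775, 2660 and 4801, Folr2 was 4248, 3520 and 3038, and Timd4, encoding Tim-4, was 958, 784 and 860. These were, per kilobase of exon, 6605 for Mrc1, 2330 for Folr2, 2005 for Cd163, 1283 for Lyve1 and 399 for Timd4. Stab1, another scavenger receptor gene, lay between Mrc1 and Folr2 at 5934 per kilobase of exon, with counts of 76032, 46499 and 60623. Siglec1 was nearly the same in every library, at 5109, 5111 and 5035.

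All 7 Fc receptor genes were expressed, and replicate 2 was the lowest library for all 7, against 34.1% of all expressed genes. On the CPM scale it was lowest for 5 of these genes, against 24.6%. The gamma chain gene Fcer1g had 18542 normalized counts per kilobase of exon, above Fcgr3 (7383), Fcgrt (4344), Fcgr4 (3544), Fcgr2b (3305) and Fcgr1 (2000). Fcgrt, the neonatal Fc receptor, was the 1 gene of wide spread, at 11232, 7001 and 9161.

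Sensors of bacteria were uneven. Cd14, the lipopolysaccharide co-receptor, stood at 65155, 53916 and 55515, whereas Tlr4 stood at 996, 919 and 1176 and its partner Ly96 at 198, 196 and 203. This was 33600 per kilobase of exon for Cd14, 185 for Tlr4 and 195 for Ly96. Of the Toll-like receptors that could be read, Tlr2 was the highest by this scale, at 2828, ahead of Tlr12 (1890) and Tlr9 (1420). Tlr7, Tlr8 and Tlr13 lie on chromosome X and could not be ranked. Tlr9 (5206, 3251 and 6354) and Tlr12 (6888, 3406 and 7718) were the 2 genes of wide spread among the 18 expressed, both lowest in replicate 2. Over all expressed genes, 9.06% were of wide spread, which is close to this share. The flagellin receptor gene Tlr5 stood at 888 ± 168 and the double-stranded RNA receptor gene Tlr3 at 186 ± 24.1.

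Of 19 C-type lectins all were expressed and 6 had a wide spread, against 9.06% of all expressed genes. Without replicate 2, 8 had a wide spread, against 17.3%. Clec7a, which encodes the fungal glucan receptor Dectin-1, stood at 4125, 10502 and 6678, and Clec4e, encoding Mincle, at 3046, 5811 and 3733. In both, replicate 2 was highest and replicate 1 lowest. Clec4n, encoding Dectin-2, had the opposite order of the libraries at 6821, 4258 and 6023, as had Mgl2 at 3355, 1941 and 3042. Clec4a3 was almost constant at 4582, 4705 and 4619.

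Cytokine transcripts were led by the IL-1 system and TGF-beta. Il1b stood at 25126, 28169 and 26070, its natural antagonist Il1rn at 16842, 15468 and 15264, and Tgfb1 at 20696, 20148 and 18877. Per kilobase of exon Il1b had 13873 normalized counts, Tgfb1 3948, Il10 3367, Il1rn 2865 and Tnf 2578. Tnf counts were 4418, 3503 and 4757. Other inflammatory cytokines were low in the ranks. Il6 had 53.9, 39.7 and 56.7, Il12b 74.6, 175 and 89.6, Il12a 38.1, 18.4 and 25.6, and Il23a 14.9, 45.5 and 12.8. Of the 26 cytokines listed, Csf2 alone did not reach the minimum, at 0, 2.94 and 14.6. Nos2, the inducible nitric oxide synthase, was also low at 95.3, 68.3 and 88.7.

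Genes of IL-10 and TGF-beta signalling were well represented, with 18 of 19 expressed. Tgfbr1 (6714, 7243 and 11435) was the 1 gene of wide spread, against 9.06% of all expressed genes. Il10ra, the chain specific for IL-10, stood at 10082, 8496 and 10348, Stat3 at 21707, 17840 and 21018, and its target Socs3 at 28112, 19217 and 24601. Thbs1, thrombospondin 1, which can activate latent TGF-beta, ranked at 11 of all genes with 138703, 172202 and 153434. Like Actb and the elongation factor genes Eef1a1 and Eef2, it was highest in replicate 2. Itgb8, a chain of the TGF-beta-activating integrin, was not expressed by the rule, at 14.1, 7.34 and 0.

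Chemokines were expressed broadly, 12 of 13 in each of the CC and CXC lists. Cxcl16, a membrane-bound chemokine, stood at 29506, 20195 and 30275 and the neutrophil attractant Cxcl2 at 18114, 14882 and 16830. Per kilobase of exon Pf4 (10029), Cxcl16 (8824) and Cxcl2 (8031) led the CXC genes, and Ccl6 (6952), Ccl7 (5355) and Ccl8 (4265) the CC genes. The monocyte attractants Ccl2 (4747, 3025 and 3961) and Ccl7 (5540, 3175 and 4154) were the CC genes of wide spread, lowest in replicate 2. Ccl17, a dendritic cell chemokine, was at 0 in replicate 1 and so not expressed by the rule.

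Chemokine receptors were divided. Ccr1 and Cxcr4 were of ordinary spread, Cxcr4 standing at 12072, 13981 and 15789. Of 11 expressed receptors 5 were of wide spread, against 9.06% of all expressed genes. These were Ccr2, Ccr6, Ccr7, Ccr10 and Cxcr5, all highest in replicate 2. Ccr2, the receptor of incoming monocytes, stood at 2248, 4733 and 2901, and Cxcr5, a follicular homing receptor of B cells, at 592, 1254 and 822. B cell and monocyte markers were highest in that library too, and their part was not tested.

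The phagocyte NADPH oxidase, the complex disabled in the mutant mice of the series, was steady in WT cells. None of its 9 expressed genes had a wide spread, against 9.06% of all expressed genes. Among so few genes that difference is small. The median CV of the 9 was 5.58%, against 15.4% over all expressed genes, which were not matched for level. The cytosolic subunit gene Ncf1, which encodes p47phox, stood at 10066, 8990 and 10815. The membrane subunit gene Cyba stood at 10405, 9303 and 8838, while its partner Cybb, encoding gp91phox, was among the unreadable X-linked genes. Readable relatives used by other tissues did not reach the minimum in every library. Nox3 and Duox1 were at 0 in all 3 libraries, Nox4 at 0, 5.14 and 0, and Duox2 at 25.7, 4.41 and 2.74. Nox1, another relative, lies on chromosome X and could not be read. All 20 antioxidant genes were expressed, led per kilobase of exon by Gpx1 (6475) and Prdx5 (4177). Prdx6 and Srxn1 were of wide spread, Srxn1 at 6800, 4191 and 5878.

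Interferon-induced genes were all present and mostly modest. The 27 genes held 0.161% ± 0.00630 of the total, with Isg15 at 3171, 2865 and 2530. A wide spread was seen in 6 of the 27, against 9.06% of all expressed genes, or in 5 without replicate 2, against 17.3%. Of the 6, Oasl1 (5891, 3064 and 4890) and Rsad2 (3148, 2010 and 3263) were lowest in replicate 2, and Zbp1 (796, 1422 and 796) was highest there.

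Of 15 expressed genes on a list of matrix proteases and their partners, 7 had a wide spread, against 9.06% of all expressed genes, or 3 without replicate 2, against 17.3%. Replicate 2 was lowest in 12 of the 15, against 34.1%, and on the CPM scale in 9, against 24.6%. Mmp13, a collagenase, stood at 9815, 6735 and 12267 and Plau, encoding urokinase, at 11604, 6603 and 12124. Mmp9, a gelatinase, was low in replicate 3 instead, at 1988, 2027 and 572. Mmp14 (29045 ± 1829) and Plaur (13588 ± 493) were steady.

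**Figure D2:**
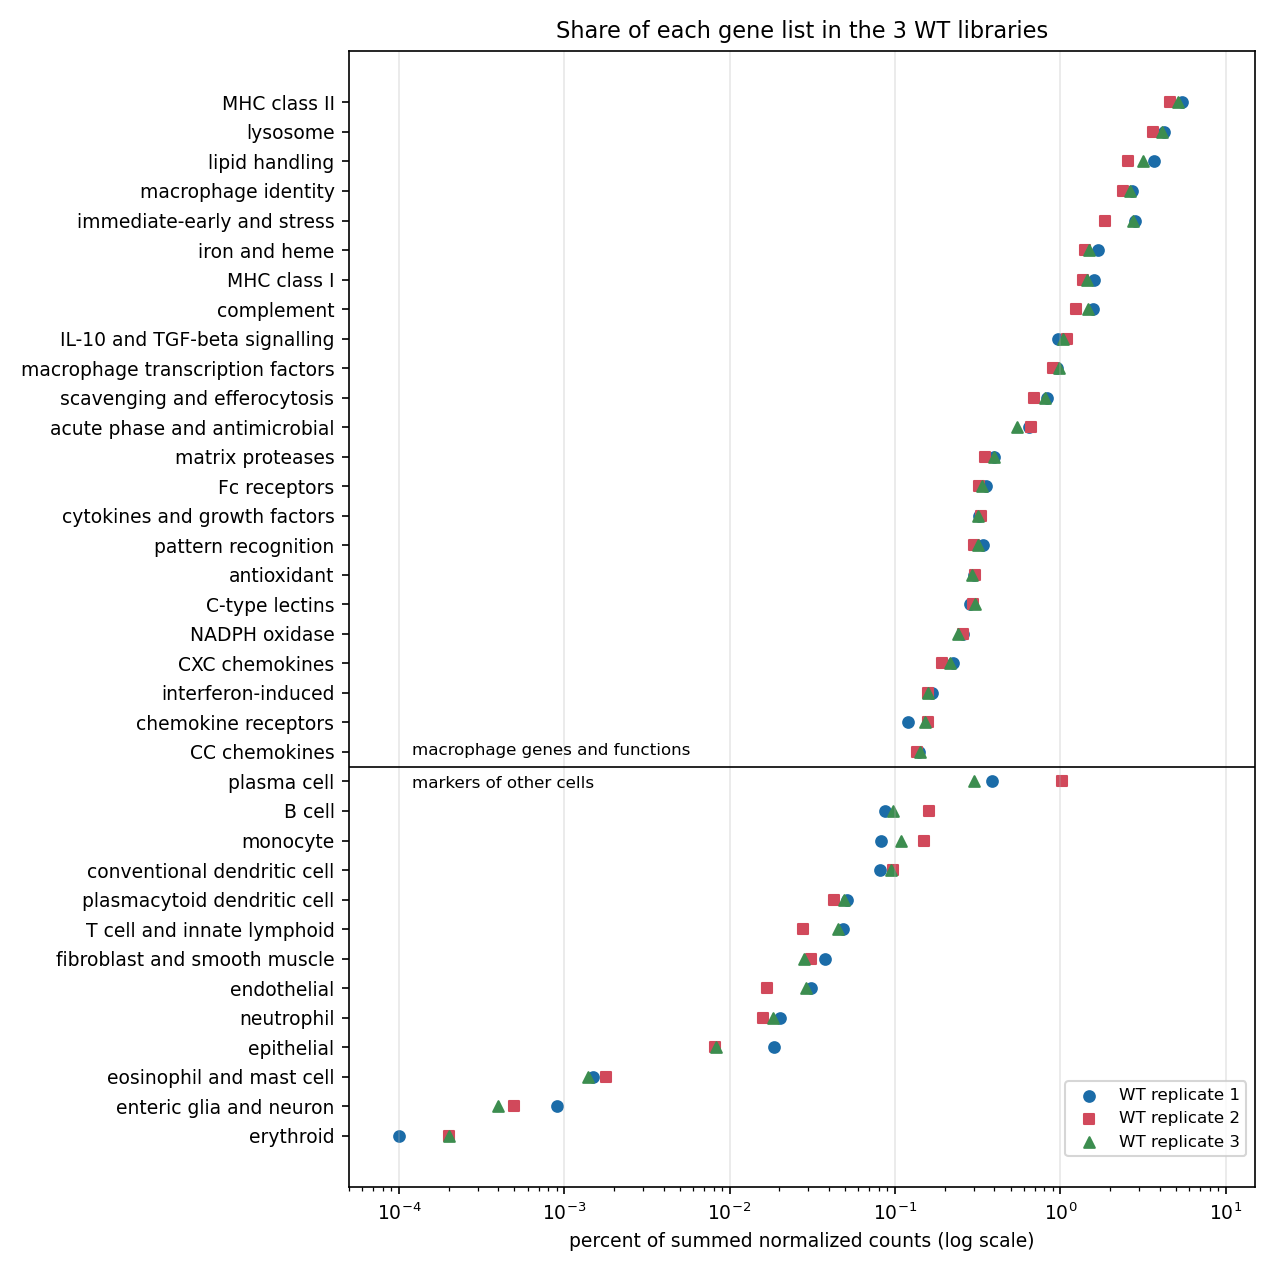
Share of the summed normalized counts (percent, log scale) held by each gene list, with 1 point per WT library, macrophage lists above the line and markers of other cells below it. MHC class II holds 4.61% to 5.47%, while plasma cell genes reach 1.03% in replicate 2 and 0.300% in replicate 3, and lists can share genes.

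The spread between the WT libraries was moderate for most genes. The median CV over the 12516 expressed genes was 15.4%, and the middle 90% of genes lay between 4.01% and 52.5%. Among the 1134 genes of wide spread, 91 were immunoglobulin segments. Of the 899 named ones with a mean of at least 100, replicate 2 was the lowest library in 50.1%, against 34.1% of all expressed genes. Scaling to CPM gave 47.3% against 24.6%. That scaling moved the median log2 ratio of replicate 2 to the mean of the other libraries from 0.00 to 0.11 over all expressed genes.

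The 15 widest named genes, chosen for their spread and described without a test, were of a few kinds. Saa3, an acute-phase protein made by macrophages, was the widest, at 4575, 17911 and 3281, or 9.33 times the CV of genes of similar level. Lcn2, which withholds bacterial iron, stood at 240, 1048 and 175 and Hp, haptoglobin, at 706, 1725 and 414. All 3 acute-phase genes were highest in replicate 2. Il22ra2, which encodes the soluble binding protein of IL-22, stood at 581, 1745 and 529. The scavenger receptor gene Marco was 1434, 2215 and 438. Slc15a2, a peptide transporter, ran the other way, at 1748, 81.5 and 693. The nucleoside transporter gene Slc29a1 had the same order of libraries, at 9665, 3330 and 6088. Lars2, a mitochondrial leucyl-tRNA synthetase, stood at 7725, 15681 and 3785. The other widest genes were the chaperones Bag3 and Hspb1, the B and plasma cell genes Jchain, Mzb1 and Ms4a1, the lipase Lpl and the goblet cell mucin Muc2. Without replicate 2, Jchain, Bag3, Il22ra2, Mzb1 and Lcn2 were no longer wide, and without replicate 1 or 3 all 15 were.

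At the other end, 10 genes were chosen as the narrowest among those with a mean of at least 100. They included Atp6v0d1 above, Atp1b3, a subunit of the sodium pump (8414, 8422 and 8485), and Plcg1, a phospholipase of receptor signalling (413, 410 and 409). The others were Trim26, Def8, Zhx2, Zfp382, Tceanc2, Znhit2 and Ift57. They were chosen for their narrow spread, and no test was made.

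**Figure D3:**
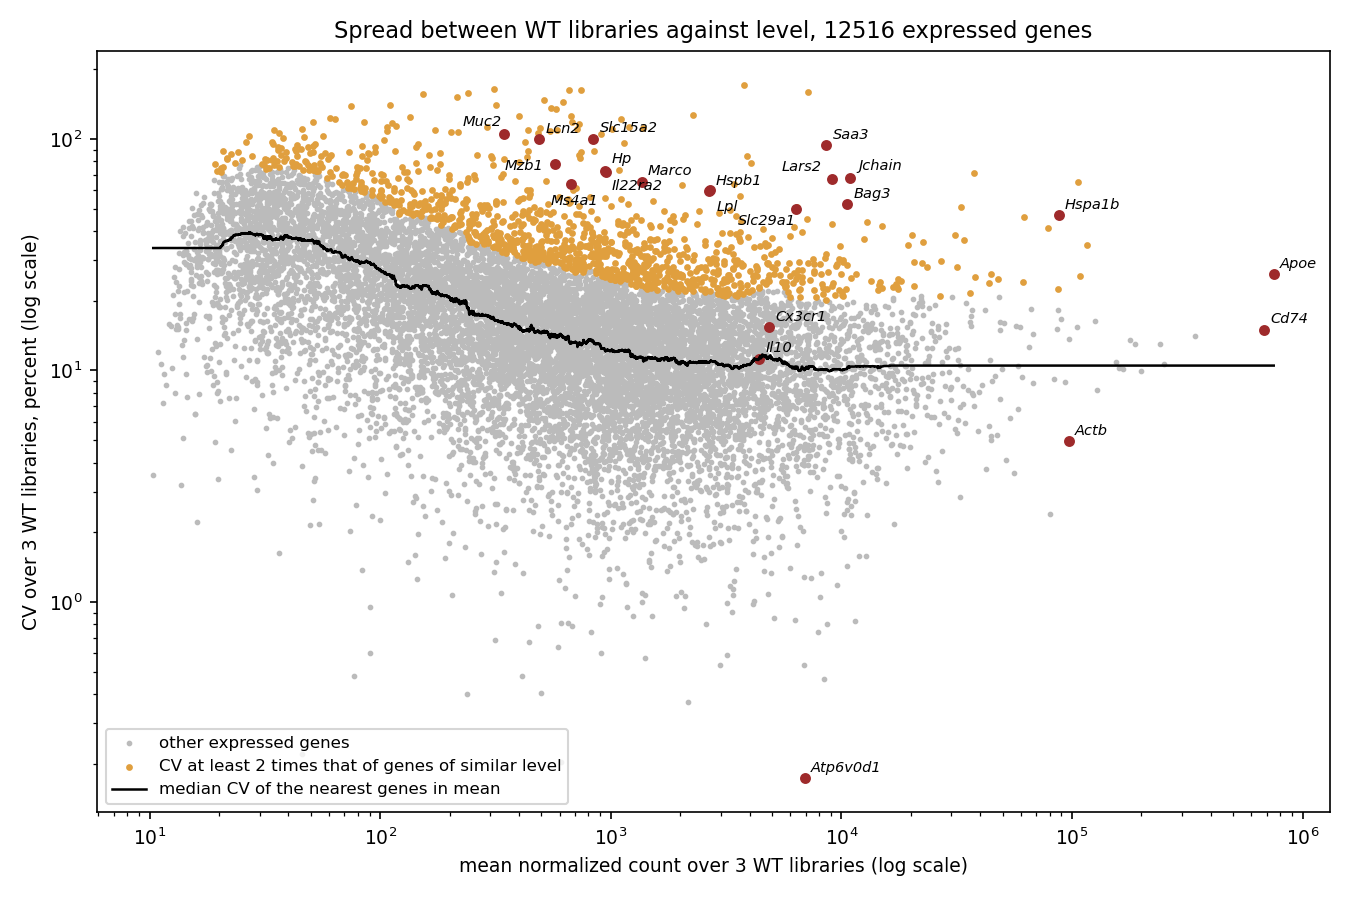
CV over the 3 WT libraries (percent, log scale) against mean normalized count (log scale) for 12516 expressed genes, with the 1134 of wide spread in orange, the median CV of the genes nearest in mean as a line, and named genes in dark red. The line lies near 10 percent for the highest genes, Saa3, Slc15a2, Muc2 and Lcn2 lie far above it, and the unnamed points higher still include immunoglobulin segments.

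Heat-shock and immediate-early genes were both high and unsteady. Heat-shock proteins refold damaged proteins and are induced through heat-shock factor 1, and the immediate-early genes Fos, Jun and their relatives respond quickly to stimulation. Of 37 genes in the heat-shock family, 23 were expressed, 11 with a wide spread, against 9.06% of all expressed genes. The family held 2.53%, 1.54% and 2.59% of the total. Hspa1b stood at 109619, 40107 and 112782 and Hspa1a at 79608, 29113 and 77715. Hsp90aa1 stood at 89421, 41809 and 103956 and Hspa8 at 149198, 71205 and 127739. The co-chaperones Dnajb1 (17282, 6511 and 14771) and Bag3 (14827, 4297 and 12608) had the same pattern, with replicates 1 and 3 close and replicate 2 low. Over the 23 expressed members, the median log2 ratio of replicate 2 to the mean of the other libraries was -0.62, against 0.00 over all expressed genes. Hspa5, the chaperone of the endoplasmic reticulum, was not lower in replicate 2, at 78021, 79481 and 91937. Without replicate 2, 3 of the 23 were of wide spread, against 17.3% of all expressed genes, and the CV ratio of Hspa1b went from 4.47 to 0.305.

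Hspa1a and Hspa1b are neighbouring genes for nearly identical inducible HSP70 proteins, so reads can be shared between them and their separate levels are uncertain. The ratio of Hspa1b to Hspa1a counts was 1.38, 1.38 and 1.45. The 200 bases before each start are shown because the 2 genes varied together, with capitals marking a heat-shock element spelled GAANNTTC, at chr17:34972157-34972356 for Hspa1a and chr17:34959239-34959438 for Hspa1b, both on the minus strand of GRCm38.p6 from RefSeq.
Hspa1a: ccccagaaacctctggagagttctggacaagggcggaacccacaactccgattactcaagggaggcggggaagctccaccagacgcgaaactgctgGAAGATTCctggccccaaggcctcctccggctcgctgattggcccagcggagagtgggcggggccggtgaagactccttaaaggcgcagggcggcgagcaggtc
Hspa1b: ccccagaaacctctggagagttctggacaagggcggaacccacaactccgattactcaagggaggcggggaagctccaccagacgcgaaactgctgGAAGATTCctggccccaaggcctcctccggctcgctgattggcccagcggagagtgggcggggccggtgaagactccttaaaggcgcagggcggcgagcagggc

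The windows were identical in 199 of 200 bases, and the element began 104 bases before the start in both. GAANNTTC, which reads the same on both strands, occurred in 5.36% of 32851 promoter windows, and its letters also occur in the H2-Aa window above, overlapping the Y box there. The letters CTGATTGG likewise occur in both HSP70 windows, left in lower case. GCAACT occurs in neither HSP70 window, and GAANNTTC does not occur in the H2-Eb1 window.

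Immediate-early genes did not all follow the chaperones. Junb (62572, 54651 and 58148), Zfp36 (37442 ± 2641) and Fos (23959, 21509 and 25455) were steady. Jun was 20199, 12597 and 20126, Fosb was 54779, 31949 and 46439, and Jund was 58920, 35386 and 48753, all lowest in replicate 2. Nr4a2 (1602, 2959 and 1870) and Egr3 (456, 1055 and 775), which antigen and cytokine receptors also induce, were highest there.

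Genes of other lineages were read next, since a sort can carry other cells. B cell markers were all expressed, 15 of 15, and all 15 were highest in replicate 2, against 36.4% of all expressed genes, or 48.5% on the CPM scale. Cd79a, a chain of the B cell receptor, stood at 2892, 5299 and 2729. Pax5, the factor that fixes B cell identity, was 1078, 2303 and 1800 and Ms4a1, encoding CD20, was 340, 1161 and 522. Cd22 was steady at 3717, 3729 and 3425. The list held 0.0873%, 0.161% and 0.0969% of the total, and 13 of its 15 genes had a wide spread, against 9.06% of all expressed genes, or 6 without replicate 2, against 17.3%.

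Plasma cell transcripts were more abundant, as 10 of 10 genes were expressed and held 0.387%, 1.03% and 0.300% of the total. Their mean share was 0.571%, or 0.344% without replicate 2. Igha, the constant region of the IgA that gut plasma cells secrete, stood at 75935, 185267 and 56997 and ranked at 16 of all genes. Igkc, the kappa constant region, was 26263, 68094 and 18443. Jchain, which joins IgA into dimers, was 6743, 19473 and 6603. Of the 10 genes 9 were highest in replicate 2, and Iglc2 was highest in replicate 1 at 1258, 884 and 655. Of 417 immunoglobulin segments, 106 were expressed. Of these, 91 had a wide spread, against 9.06% of all expressed genes, and 60 were highest in replicate 2, against 36.4%. Segments share sequence, so reads may be split among them. Tnfrsf17, the plasma cell survival receptor BCMA, was low at 38.1, 53.6 and 43.9.

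T cell transcripts were nearly missing. Cd3e stood at 4.14, 5.87 and 12.8, Cd3d at 0, 4.41 and 0, and none of 268 T cell receptor segments met the minimum. The 6 of 22 genes that did were Cd4, Il7r, Lck, Thy1, Tcf7 and Cd247. Cd4, which some mouse gut macrophages are known to carry themselves, stood at 12323, 5950 and 11166, and Il7r at 1919, 1358 and 2048. Ncr1, of natural killer and innate lymphoid cells, was at 0 in all 3 libraries.

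Most granulocyte genes did not reach the minimum either. S100a9, Ly6g, Camp, Ngp and Elane were at 0 in all 3 libraries, S100a8 was 4.97, 2.20 and 0, and of 12 neutrophil genes only Csf3r (5156 ± 964), which macrophages also express, and Mmp8 (85.4, 323 and 118) were expressed. The mast cell and eosinophil genes Cpa3, Mcpt1, Mcpt2, Mcpt4, Tpsb2, Fcer1a and Epx were at 0 in all 3. Of the 13 on that list 4 were expressed, namely Siglecf, Il5ra, Gata2 and Hdc. The whole list summed to 442.5, 493.4 and 423.4 normalized counts in replicates 1, 2 and 3. Red cell genes did not reach the minimum.

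Monocyte genes were present at low to moderate level, and 12 of 13 were highest in replicate 2, against 36.4% of all expressed genes. Ly6c2, of the antigen gated against, stood at 278, 525 and 302. Plac8 was 895, 1905 and 764 and Fn1, fibronectin, was 4904, 12566 and 9720. Of the 13, 9 had a wide spread, against 9.06% of all expressed genes, or 4 without replicate 2, against 17.3%. F13a1, which mature macrophages also make, was 12096, 14483 and 14519.

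Conventional dendritic cell genes had a similar pattern, with 17 of 17 expressed and 14 highest in replicate 2, against 36.4% of all expressed genes. Flt3, the growth factor receptor of dendritic cells, stood at 204, 621 and 199 and Ccr7, of migrating ones, at 2961, 5161 and 2799. Zbtb46 (189, 212 and 140), Xcr1 (49.7, 43.3 and 24.7) and Clec9a (24.0, 84.4 and 39.3) were low. Batf3 was steady at 448, 471 and 457. Itgax, encoding CD11c and shared with macrophages, went against the list at 14678, 11212 and 18279. Siglech, of plasmacytoid dendritic cells, was 291 ± 47.9.

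Structural cells left smaller traces, and different libraries led. Of 16 expressed epithelial genes 15 were highest in replicate 1, against 32.2% of all expressed genes. Car1 stood at 1132, 545 and 516, Krt8 at 1153, 568 and 347 and Muc2 at 743, 41.1 and 249, while Epcam was more even at 207, 184 and 158. The list held 0.0185%, 0.00820% and 0.00830% of the total. Fibroblast and smooth muscle genes were highest in replicate 1 in 14 of 17, with Col3a1 at 2545, 2231 and 1986. None of 11 endothelial genes was highest in replicate 2, against 36.4% of all expressed genes, or 48.5% on the CPM scale. Of the 11, 6 had a wide spread, against 9.06% of all expressed genes, or 4 without replicate 2, against 17.3%. Plvap, of fenestrated vessels, stood at 662, 235 and 892, and Pecam1, which macrophages share, at 4809, 2144 and 3869. Of 10 glial and neuronal genes Gfap (131, 60.2 and 53.0) and Sox10 (59.7, 19.8 and 33.8) were expressed.

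Replicate 2 therefore stood apart from the other WT libraries in several groups at once. It was lowest in 15 of 17 complement genes, 23 of 28 lysosomal genes and 16 of 23 heat-shock genes, against 34.1% of all expressed genes. It was highest in 15 of 15 B cell, 12 of 13 monocyte and 14 of 17 dendritic cell genes, against 36.4%. Ribosomal protein genes were highest there in 72 of 74 expressed members, holding 2.44%, 3.18% and 2.33% of the total. Nuclear-encoded genes of oxidative phosphorylation were highest there in 52 of 77. Replicate 3 also departed in these 2 groups. It was lowest in 58 of the 74 ribosomal protein genes and 57 of the 77 oxidative phosphorylation genes, against 31.8% of all expressed genes. On the CPM scale, replicate 2 was lowest in 13 of 17 complement, 17 of 28 lysosomal and 14 of 23 heat-shock genes, against 24.6% of all expressed genes. It was highest on that scale in 73 of 74 ribosomal protein genes, against 48.5%. The part of B cells, monocytes and other cells in the lower macrophage values of replicate 2 was not tested.

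**Figure D4:**
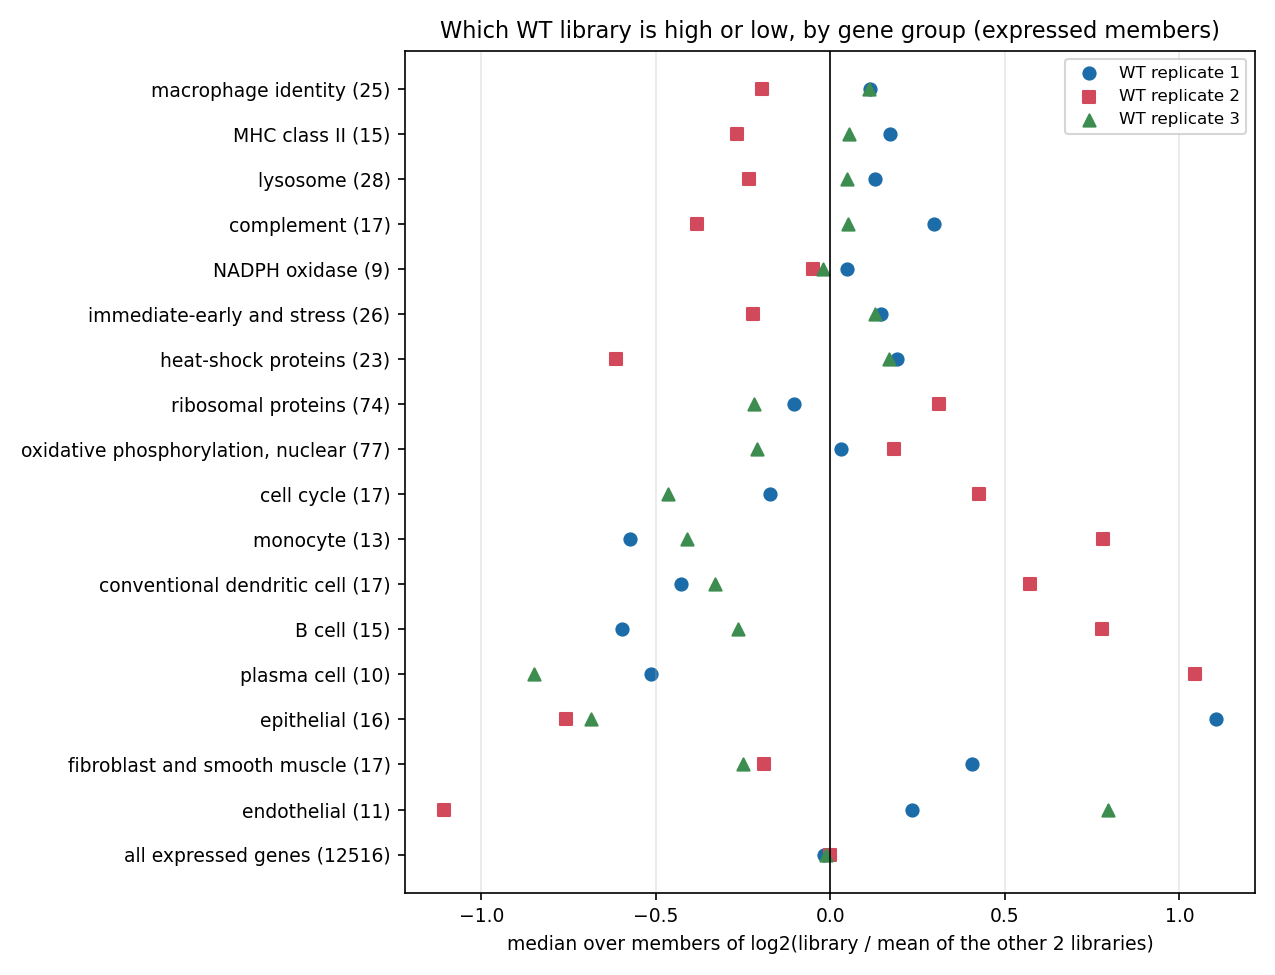
Median over the expressed members of each gene group of the log2 ratio of a WT library to the mean of the other 2, with the number of members in brackets. Replicate 2 lies left of 0 for heat-shock proteins (-0.62), complement and lysosome and right of 0 for B cell, plasma cell, monocyte and ribosomal genes, while all 3 libraries lie near 0 over all expressed genes.

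The minimum of 10 lay among genes of very low count. Just inside it were Gm31684 (10.8, 10.3 and 10.1), Gm15834 (12.4, 10.3 and 10.1) and 4921536K21Rik (19.1, 16.2 and 10.1). Just outside were Vmn2r29 (9.94, 15.4 and 46.6), Mfsd4b4 (9.94, 19.8 and 22.9) and 4930579G18Rik (9.94, 11.0 and 15.5). A further 857 genes had their lowest library between 5 and 10.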

How the data were processed

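The 3 WT libraries of colon lamina propria macrophages were analysed, as grouped by the labels. Per the labels' protocols, base calls were converted with bcl2fastq 2.19, adapters removed with Cutadapt, and reads mapped to mm10 with STAR 2.5.2b and counted with featureCounts. DESeq2 is named in the submitters' processing notes. The strand setting and gene annotation are not given in the sources used here, so overlapping and antisense genes cannot be told apart. What the authors deposited is a signal, namely read counts per gene after division by 1 size factor per library. Whole reads were recovered for 100% of values (tolerance 0.01), with size factors of 1.21, 1.36 and 1.09. Depth was 32864793 to 38036453 reads per library.

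Expressed genes, CVs, gene lists and shares were computed with Python 3.11.15, pandas 2.3.3 and numpy 2.4.6, and the spread measure was tested on simulated data. Lengths are summed exons of GENCODE M21 (GRCm38), matched by symbol for 12069 of 12516 expressed genes, and promoters come from RefSeq GRCm38.p6. Genes eligible to be named were the 30 highest by mean and per kilobase, the 15 widest and 10 narrowest whose mean reaches 100 (immunoglobulin segments and genes known by clone numbers set aside), and from each list the highest, lowest, wide and unexpressed members. Not all of these are named, and the choice among them and other list members was made after their values were seen. The gene lists and members were chosen with earlier results of these data known. A spread was called wide when the CV was at least 2 times that of genes of similar mean. Alternative minimums, scalings, spread measures and left-out libraries were tried. The knockout libraries were left out. Some genes of the lists are not reported here by name, though they enter the counts and shares.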

Additional observations from a re-analysis of the deposited data

How the results depend on the processing

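The number of expressed genes ran from 10560 to 13781 over the alternative minimums, scalings and left-out libraries, and 12474 of the 12516 genes also met the minimum on the CPM scale. Ranked per kilobase of exon, the 100 highest genes held 37.8% of the total in place of 27.1%. A CV ratio of 3 or more left 259 genes of wide spread in place of 1134. With 1 library left out, so that the CV rests on 2 libraries, 2226 to 2369 genes were wide: 2328 without replicate 1, 2226 without replicate 2 and 2369 without replicate 3, of which 864, 619 and 903 were among the 1134. The other spread measures, scalings and windows gave 1000 to 1279, and a minimum of 50 in each library gave 988. The plasma cell share was 0.571%, and 0.344% without replicate 2. Of the 30 highest genes 29 were shared with a ranking by median and 23 with one per kilobase of the longest transcript, the latter chosen after seeing the data. No paired analysis was possible because the results come from 1 group and from no test.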

Other observations

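Genes of the cytoskeleton, of glycolysis and of the cell cycle, not described above, differed in how evenly the WT libraries read them. Actb stood at 98037, 100725 and 91413 in replicates 1, 2 and 3, and Actg1 at 55793, 58524 and 54568. Of 16 expressed cytoskeletal genes Tmsb10 alone, which binds actin monomers, had a wide spread, at 5847, 8057 and 4822. Glycolytic genes were lowest in replicate 3 in 7 of 13, against 31.8% of all expressed genes, with Gapdh at 33106, 35179 and 28232 and Pkm at 35533, 35044 and 30317. The hexokinase genes Hk2 (9994, 6157 and 8463) and Hk3 (7677, 4235 and 5826) were of wide spread and lowest in replicate 2.

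All 17 cell cycle genes were expressed at low to moderate level, and 15 were highest in replicate 2, against 36.4% of all expressed genes. Mki67, a marker of cycling cells, stood at 2187, 2276 and 1508, Top2a at 797, 1240 and 801 and Pcna at 3937, 5000 and 4771. Which cells in the sort carried these transcripts was not tested.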
